A study of Homo sapiens with 36 samples.

Results

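The 38 genes described here are those that cells switch on through the transcription factor ATF4 when amino acids run short or proteins misfold, together with the enzymes, transporters and tRNA synthetases that supply and charge amino acids. They were chosen by gene name, as 7 transcription factors, 6 stress effectors and feedback genes, 12 enzymes of amino acid and folate metabolism, 8 amino acid transporters, and 5 genes of tRNA charging or export. They are 38 of the 58735 genes of the count table, and all 38 passed the filter on low counts in every comparison. RNA-seq covered 36 libraries of HN4, HN6 and Cal27, 3 established human lines of head and neck squamous cell carcinoma, in 12 groups of 3 libraries. In 1 experiment each line was left untreated or was given recombinant interleukin-8 (IL-8), the chemokine that binds CXCR1 and CXCR2, at 100 ng per ml for 24 h. In the other, each line received a plasmid with ACLY, an enzyme that cuts citrate to give acetyl-CoA in the cytosol, or the vector alone. The questions were how IL-8 acts on lines with unlike CXCR1 levels and which genes respond to ACLY. All groups shared 1 medium, with fetal bovine serum depleted of exosomes, and the labels name no amino acid starvation. The sources used here do not give the plasmid's promoter, the time after transfection or whether stable clones were used. Nor do the labels say that the numbered replicates came from separate cultures. The p-values therefore measure only library-to-library spread, which may be technical.

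As background, kinases that sense uncharged tRNA, misfolded protein, haem shortage or viral RNA phosphorylate the initiation factor eIF2, which slows translation in general but lets ATF4 mRNA be read. ATF4 then binds DNA as a dimer with other basic leucine zipper proteins and raises genes for amino acid import, serine and asparagine synthesis, one-carbon units and tRNA charging. Prolonged activity adds CHOP (DDIT3), TRIB3 and CHAC1, which are linked to feedback, glutathione breakdown and cell death. In many carcinomas the pathway supports growth when amino acids are scarce. ATF4 protein is set mainly by translation, so ATF4 mRNA reports it poorly, and protein was not measured here.

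The DNA element that ATF4 binds with C/EBP partners is often written TGATGNAA, and TTNCATCA when read on the other strand. RefSeq promoter windows of 300 bases, 250 before and 50 after a transcript's start (build GRCh38.p14), were found for 32 of the 38 genes. NUPR1, PSPH, SHMT2, ALDH1L2, PYCR1 and SLC7A11 had no window in that table. The letters occurred on either strand in at least 1 window of 10 of the 32 genes: ATF3, CHAC1, CEBPG, ASNS, SLC3A2, SLC7A1, SLC1A4, SLC1A5, AARS and GARS. Over the whole table, 4.46% of genes and 3.62% of the 35116 windows held them. The 3 runs below are printed because CHAC1 and ASNS had some of the largest changes, while SLC7A1 holds the same letters and changed little or fell. Capitals mark the match, and each run reads along the strand of its gene. CHAC1 is shown at chr15:40953221-40953470 (plus strand), ASNS at chr7:97872409-97872658 (minus strand) and SLC7A1 at chr13:29595663-29595692 (minus strand). The first 2 are the 250 bases before the start, and the third is 30 bases around a match that lies just past the start.
CHAC1: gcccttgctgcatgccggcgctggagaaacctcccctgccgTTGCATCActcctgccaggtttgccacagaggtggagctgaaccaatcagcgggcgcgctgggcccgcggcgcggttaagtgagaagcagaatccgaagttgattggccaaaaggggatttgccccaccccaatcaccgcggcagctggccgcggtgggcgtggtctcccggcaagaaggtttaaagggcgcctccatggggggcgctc
ASNS: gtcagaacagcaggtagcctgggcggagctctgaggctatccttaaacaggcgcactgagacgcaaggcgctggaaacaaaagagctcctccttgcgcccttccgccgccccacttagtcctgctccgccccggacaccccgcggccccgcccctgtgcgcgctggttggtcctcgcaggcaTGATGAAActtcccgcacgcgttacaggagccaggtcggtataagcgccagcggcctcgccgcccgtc
SLC7A1: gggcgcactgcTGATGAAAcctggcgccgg
A match is a description of letters, not a measured binding site. A second ASNS window, at another start, held no match.

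The libraries held 16570601 to 20232735 counts, and the 38 genes together took 0.463% to 0.807% of them. Levels are counts scaled by library depth (CPM) with edgeR's TMM scaling, and 3 counts, the limit that a count of 0 allows, come to 0.148 to 0.181 CPM. That limit covers counting error only. Log2 changes are from edgeR's quasi-likelihood fit and are followed by ± their standard error, with p-values adjusted over all genes tested and a threshold of 0.05. A gene rose or fell where it passed that threshold. A value in parentheses after a change, written as a number ± its error, is that gene's log2 change. Where 2 sets of 3 values are joined by against, the control libraries (untreated or vector) come first. The 8 squamous carcinoma markers summed to 1160 to 7060 CPM over the libraries, against 3.68 to 53.7 CPM for 6 fibroblast markers, 2.4 to 8.06 CPM for 5 leukocyte markers and 3.74 to 28.3 CPM for 3 endothelial markers. In every HN4 and HN6 group 1 of the 8 squamous markers had a mean under 1 CPM. In untreated HN4 and in HN4 labelled ACLY 1 of them had no read. In bulk RNA, fewer cells that express a gene and less RNA per cell cannot be told apart.

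Labels and libraries bear on what follows in 4 ways. ACLY read 1510, 1510 and 1500 CPM in the HN4 libraries labelled vector and 362, 370 and 314 CPM in those labelled ACLY, against the direction of the labels, so these groups are called by their labels only. In HN6 it read 274, 265 and 266 CPM with the vector and 2250, 2250 and 2140 CPM with the plasmid, and in Cal27 232, 218 and 242 against 1930, 1920 and 1860 CPM, as the labels say. ACLY also rose with IL-8, from 374, 380 and 369 to 1330, 1370 and 1360 CPM in HN4 and from 233, 238 and 229 to 1210, 1250 and 1050 CPM in Cal27, but fell in HN6, from 285, 280 and 276 to 221, 227 and 225 CPM. The treated Cal27 libraries held reads of 10 genes that were otherwise read in HN4 alone. These were picked for a mean of at least 20 CPM in untreated HN4 and at most 0.3 CPM in untreated and vector HN6 and Cal27. Their median of 0% in both Cal27 control groups was thus set by the choice, which did not use the treated libraries. Their median level was 30.9 ± 3.1% (SD, n = 3) of that in untreated HN4 in Cal27 with IL-8 and 54.5 ± 0.866% with ACLY. At the same time 12 genes read in Cal27 alone, picked by a like rule on untreated Cal27, were measured. They stood at 60.7 ± 6.11% of their untreated Cal27 level with IL-8 and at 25.9 ± 1.58% with ACLY. The third Cal27 library with IL-8 stood apart: 12 of the 36 members at 5 CPM or more lay over 1.5-fold from the mean of the other libraries of its group, against 2 or fewer in every other library. Its mitochondrial share of counts was 1.06%, against 3.37% and 3.59% in the others of its group. The third HN4 library labelled ACLY also differed from its group, with a mitochondrial share of 2.15% against 5.71% and 6.03%, and with a chi-square per gene of 36.6 and 41.1 in counts against the other libraries, which differed by 3.29 from each other. Without it 31 members were higher and 3 lower in HN4 with the ACLY label than with the vector label (all genes, 18.2% and 19.3%).

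In untreated cells all 6 stress effectors were lowest in HN6. Per transcript length (TPM), ATF4, SLC7A5 and SLC38A2 were among the 5 highest members in each line. ATF4 had 544 ± 4.36 TPM in HN4, 506 ± 3.1 in HN6 and 439 ± 7.07 in Cal27 (mean ± SD, n = 3). SLC7A5, the large neutral amino acid transporter, had 367 ± 12.8, 610 ± 24.2 and 983 ± 56.3 TPM. DDIT4, an inhibitor of mTORC1 signalling, was the highest member in Cal27 at 1000 ± 123 TPM, against 281 ± 15.5 in HN4 and 86.6 ± 10.2 in HN6. At the other end, ALDH1L2 was lowest in HN4 with 0.206 ± 0.0601 TPM, ASNS was lowest in Cal27 with 2.24 ± 0.0995 TPM, and NUPR1 had no read in any untreated HN6 library.

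**Figure D1:**
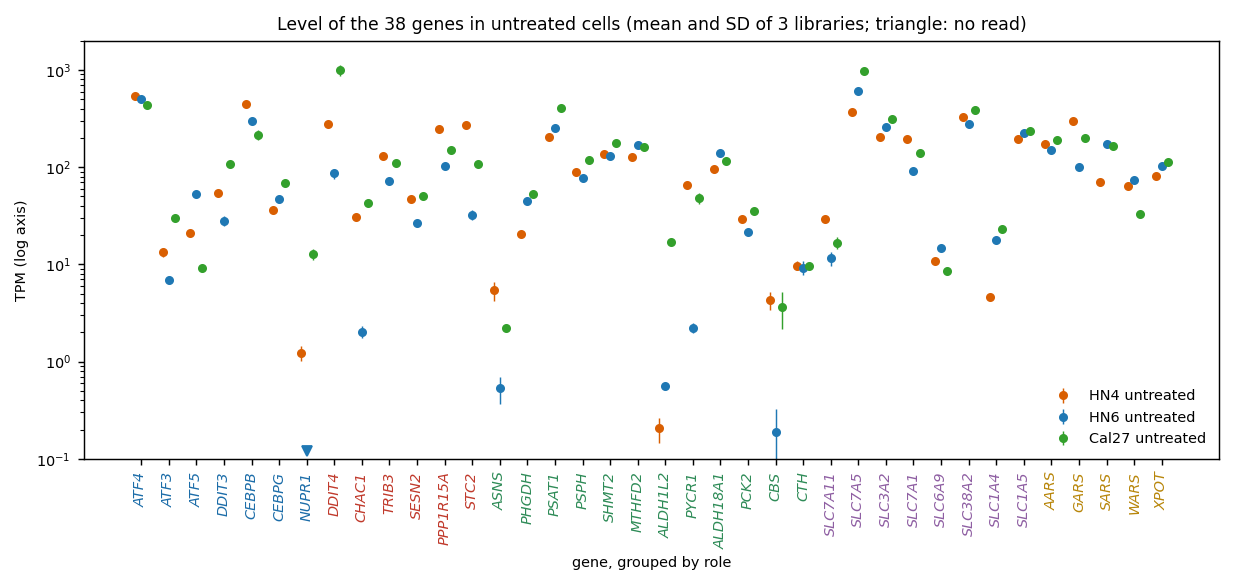
Level of each of the 38 genes in the untreated libraries of HN4, HN6 and Cal27, in TPM on a log axis, grouped by role, as the mean with its SD over 3 libraries. The triangle marks NUPR1, which had no read in untreated HN6. HN6 points lie lowest for all 6 stress effectors.

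Between untreated lines, 13 of 38 genes were higher and 18 lower in HN6 than in HN4, where 32.4% of all genes tested were higher and 34.7% lower. Cal27 against HN4 had 19 higher and 13 lower (all genes, 32.2% and 31.4%), and Cal27 against HN6 had 25 higher and 6 lower (35.3% and 33.1%). The median log2 difference of the members was -0.26, 0.18 and 0.52, against -0.03, 0.00 and 0.03 over all genes. All 6 stress effectors were lower in HN6 than in HN4, with a median of -1.53, and all 6 were higher in Cal27 than in HN6, with a median of 1.27. CHAC1, a glutathione-degrading enzyme, read 18.7, 19.1 and 19.6 CPM in HN4, 1.13, 1.08 and 1.42 in HN6 and 27.1, 23.4 and 23.4 in Cal27. HN6 libraries were thus far below both other lines, with a log2 difference of -3.99 ± 0.19 from HN4, while the difference of Cal27 from HN4 lost its call when any of 4 libraries (each of untreated HN4, or the first of untreated Cal27) was left out (adjusted p 0.0509 to 0.111). ASNS, the asparagine synthetase, read 6.02, 6.71 and 9.14 CPM in HN4, 0.906, 0.685 and 0.473 in HN6 and 2.82, 2.84 and 2.63 in Cal27, lowest in HN6 and with no overlap between lines. PYCR1, which makes proline, was at 57.1, 57.2 and 58.5 CPM in HN4 and 2.1, 1.66 and 1.83 in HN6. ALDH1L2, a mitochondrial folate enzyme, was higher in HN6 than in HN4, unlike the stress effectors, with 0.612, 0.62 and 0.349 CPM in HN4, 1.3, 1.48 and 1.36 in HN6 and 38.6, 43.2 and 39.3 in Cal27. The vector libraries, none of which entered the untreated comparison, gave 27 higher and 8 lower members in Cal27 against HN6 (all genes, 36.7% and 36.6%), and all 31 members called between the untreated lines had the same direction there, as did 100% of the 11603 genes called in both. For CHAC1 the log2 difference of Cal27 from HN6 was 4.37 ± 0.19 in the untreated libraries and 4.60 ± 0.18 in the vector libraries.

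With IL-8 more of the genes rose than fell in HN6, and more fell than rose in HN4 and Cal27. In HN6, 23 of 38 rose and 2 fell, where 7.61% of all genes tested rose and 7.81% fell, and 11 of the rises were at least 2-fold. In HN4, 3 rose and 13 fell (all genes, 6.89% and 7.09%). In Cal27, 5 rose and 15 fell (all genes, 22.7% and 16.7%). The median log2 change of the members was 0.63 in HN6, -0.17 in HN4 and -0.16 in Cal27, against 0.00, -0.01 and 0.00 over all genes. The response itself, tested as an interaction, differed among the 3 lines for 32 of 38 members, where it did for 40.2% of all genes, and between HN4 and HN6 alone for 30 of 38, against 21.7% of all genes. NUPR1, near the limit of detection in HN6, is counted in both. The test of 3 lines uses the treated Cal27 libraries, which held reads of genes read in HN4 alone. The part of those reads was not tested. Of the 10 members called in both HN4 and HN6, 7 fell in HN4 and rose in HN6: CHAC1, DDIT4, SESN2, TRIB3, STC2, ASNS and PCK2. The HN4 calls of TRIB3 and STC2 were near the threshold. They were lost when any of 14 and of 13 of the 18 libraries, in that order, was left out. Over all genes 870 were called in both lines, of which 306 fell in HN4 and rose in HN6 and 451 did the reverse. Without the third Cal27 library with IL-8, 20 members were called in HN4, 34 in HN6 and 25 in Cal27. Calls over all genes were then 5738, 6194 and 7884, against 2572, 2837 and 7247 in the main fit. Fitted on the 6 libraries of each line alone the member counts were 26, 32 and 8. Calls over all genes also rose in HN4 and HN6 and fell in Cal27 in those fits.

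**Figure D2:**
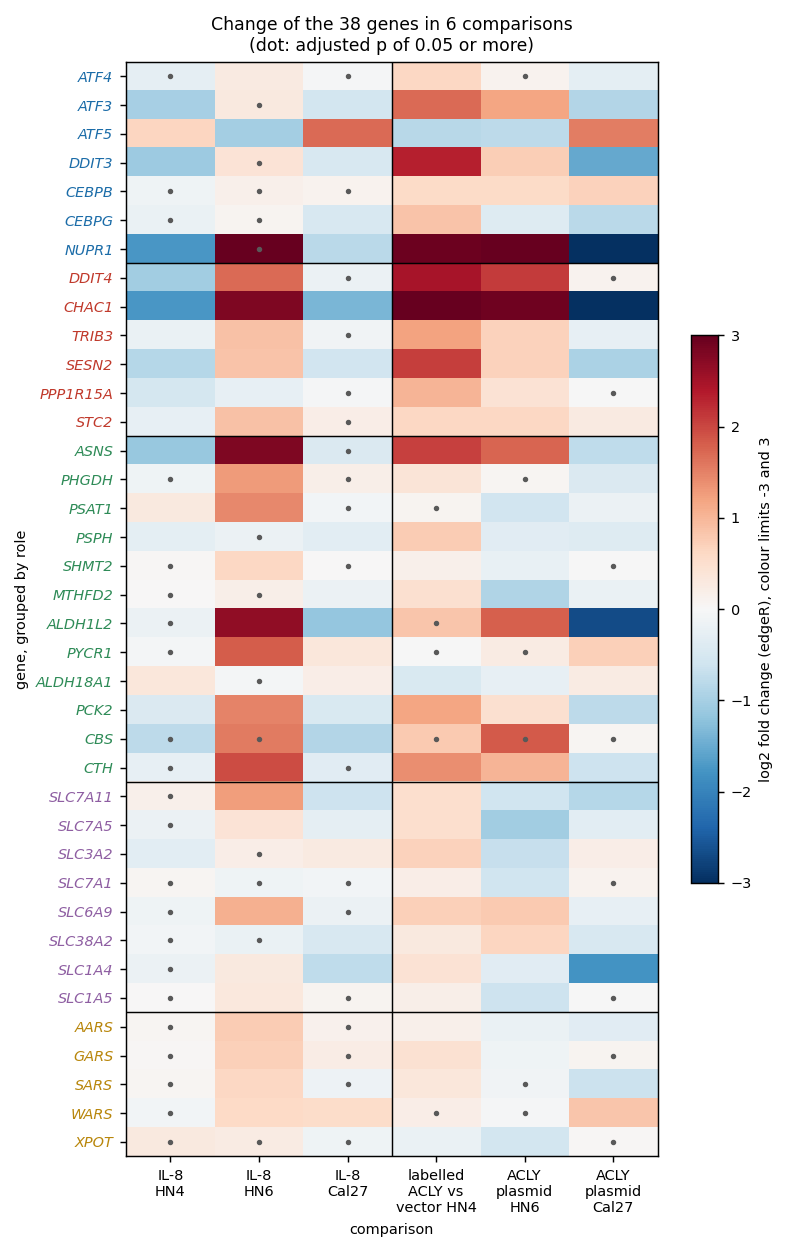
Log2 change of each of the 38 genes in 6 comparisons (columns: IL-8 against untreated and ACLY against vector in each line, HN4 as labelled), ordered by role, with a dot where the adjusted p was 0.05 or more. Colours stop at 3 in either direction. The HN6 IL-8 column is mostly raised and the Cal27 ACLY column mostly lowered.

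With the plasmid, 16 members rose and 16 fell in HN6 (all genes, 26.8% and 24.9%), with a median of 0.08 against 0.04 over all genes. The rises include NUPR1, which was near the limit of detection in HN6, so its call there has no meaning. In Cal27, 7 rose and 23 fell (all genes, 34.2% and 29%), with a median of -0.27 against 0.03. The Cal27 split was 4 and 27 under upper-quartile scaling, which moved the median of all genes from 0.03 to -0.11. In HN4, 30 were higher and 3 lower with the ACLY label than with the vector label (all genes, 18.9% and 19.1%), with a median of 0.60 against 0.01. The response differed between HN6 and Cal27 for 32 of 38 members, where it did for 61.9% of all genes. NUPR1 is counted among these 32. The part of HN4 reads in the treated Cal27 libraries was not tested.

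ATF4 (hg38 chromosome 22, 39519695 to 39522685) itself changed, as mRNA, by less than 2-fold in all 6 treatment comparisons. With IL-8 it read 403, 423 and 406 CPM in untreated HN4 and 343, 340 and 339 CPM with IL-8, 373, 364 and 371 against 444, 443 and 444 CPM in HN6, and 306, 308 and 302 against 265, 278 and 358 CPM in Cal27. The libraries did not overlap in HN4, where all 3 with IL-8 were lower, or in HN6, where all 3 were higher. The HN6 change was 0.27 ± 0.09 on the log2 scale (adjusted p = 0.043), and the call was lost when any of 15 of the 18 libraries was left out (adjusted p 0.0512 to 0.126). The HN4 change was -0.27 ± 0.09 on the log2 scale (adjusted p = 0.0504). It passed the threshold when any of 3 of the 18 libraries was left out, among them the third Cal27 library with IL-8 (adjusted p = 8.72e-07). It also passed with DESeq2 (adjusted p = 0.0183), with all 3 other scalings (0.00576 to 0.0436) and on its own 6 libraries (1.37e-08). The Cal27 change was -0.04 ± 0.09 on the log2 scale (adjusted p = 0.775). Without the third Cal27 library with IL-8 it was -0.19 on the log2 scale and passed (adjusted p = 0.000391). With the plasmid, ATF4 read 325, 355 and 350 against 381, 366 and 358 CPM in HN6, with a change of 0.10 ± 0.05 on the log2 scale (adjusted p = 0.0586). That change passed with DESeq2 (adjusted p = 0.0235) and with all 3 other scalings (0.00283 to 0.0499). Leaving out single libraries, it passed for 1 of 18. In Cal27 ATF4 went from 306, 300 and 303 to 258, 248 and 241 CPM, lower in all 3 libraries (log2 change -0.30 ± 0.05). In HN4 it was 328, 321 and 323 CPM in the libraries labelled vector and 515, 504 and 484 in those labelled ACLY, higher in all 3 (log2 change 0.63 ± 0.05).

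DDIT3 (chromosome 12, 57516588 to 57521737), which encodes CHOP, a partner of ATF4 tied to cell death, had larger changes. It went from 20.9, 20.2 and 22.7 to 10.6, 8.45 and 10.8 CPM with IL-8 in HN4, a fall in all 3 libraries (log2 change -1.09 ± 0.19, adjusted p = 0.00126). In HN6 it read 12.1, 9.36 and 10.8 against 16, 12.4 and 13.7 CPM, with a change of 0.40 ± 0.20 on the log2 scale (adjusted p = 0.19), which passed without the third Cal27 library with IL-8 (adjusted p = 0.00343). In Cal27 it went from 38.8, 38.8 and 40.9 to 21.9, 22.7 and 40.2 CPM, where the third treated library was near the untreated ones and the call (log2 change -0.49 ± 0.18, adjusted p = 0.0383) was lost when any of 7 libraries was left out, namely the 3 untreated Cal27 libraries, the first and second Cal27 libraries with IL-8, the first of untreated HN4 or the third of untreated HN6 (adjusted p 0.05 to 0.154). With the plasmid it rose in HN6, from 8.61, 11.4 and 11.6 to 16.1, 18 and 18.3 CPM (log2 change 0.73 ± 0.12, adjusted p = 1.87e-06), and fell in Cal27, from 35.3, 37.6 and 46 to 14.1, 13.5 and 13.7 CPM (log2 change -1.54 ± 0.11, adjusted p = 8.73e-15). In both lines all 3 plasmid libraries lay on 1 side of the vector libraries. In HN4 it was 7.05, 7.52 and 6.61 CPM in the libraries labelled vector and 36.8, 32.4 and 37.4 CPM in those labelled ACLY. DDIT3 lies across from MARS and MBD6 on the other strand, at 847% and 215% of its own mean CPM, and the sources used here do not give the strand setting of the counting. MARS changed by 0.12 in HN4 and by 0.63 in HN6 with IL-8, and by -0.26 in HN6 with the plasmid; its part in the DDIT3 counts was not tested.

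Among the other transcription factors, ATF3, a stress-induced repressor, fell with IL-8 in HN4, from 17.8, 16.3 and 14.7 to 8.78, 7.56 and 8.06 CPM, and in Cal27 (-0.55 ± 0.14), and rose with the plasmid in HN6 (1.19 ± 0.11). CEBPG, a dimer partner of ATF4, fell with the plasmid in HN6 (-0.38 ± 0.06) and Cal27 (-0.82 ± 0.06), while CEBPB, another partner, rose in both (0.58 ± 0.12 and 0.69 ± 0.12). ATF5, a relative of ATF4, ran opposite to most members: it read 44.2, 43.9 and 48.8 CPM in untreated HN6 and 21.7, 23.9 and 21.4 with IL-8, a fall of all 3 libraries. In Cal27 it rose, from 8.19, 6.94 and 7.19 to 18.4, 19.2 and 36.1 CPM with IL-8 and from 9, 7.47 and 9.84 to 25.8, 28.5 and 22.8 CPM with the plasmid. ATF5 lies across from NUP62, read at 444% of its mean CPM. NUP62 changed by -0.53 with IL-8 and by -0.85 with the plasmid in HN6, and by 0.27 and 0.32 in Cal27. In HN4 it changed by 0.16 with IL-8, not past the test, and by -0.35 between the plasmid groups as labelled. Its part in the ATF5 counts was not tested. NUPR1, a small stress-induced chromatin protein, was read mainly in Cal27, where it went from 22, 23.7 and 25 to 2.03, 2.67 and 2.68 CPM with the plasmid. In HN6 it stayed at or under 0.356 CPM in every library, near the limit of detection, so its fold there has no meaning.

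The 6 stress effectors and feedback genes moved together in HN4 and HN6, apart from PPP1R15A in HN6 with IL-8. With IL-8 all 6 fell in HN4 (median log2 change -0.69), while in HN6 5 rose and 1 fell (median 0.89), and in Cal27 SESN2 and CHAC1 fell. The HN4 calls of TRIB3 and STC2 were near the threshold and depended on single libraries. With the plasmid all 6 rose in HN6 (median 0.69), and all 6 were higher in the HN4 libraries labelled ACLY (median 1.64), whereas in Cal27 3 fell and 1, STC2, rose (median -0.13). Of all genes, 7.09% fell in HN4, 7.61% rose in HN6 and 16.7% fell in Cal27 with IL-8. With the plasmid 26.8% rose in HN6 and 29% fell in Cal27, and 18.9% were higher in HN4 with the ACLY label. CHAC1 (chromosome 15, 40952962 to 40956519) went from 18.7, 19.1 and 19.6 to 5.46, 6.21 and 5.45 CPM in HN4 with IL-8, lower in all 3 libraries (log2 change -1.74 ± 0.16, adjusted p = 2.2e-06). In HN6 it went the other way, from 1.13, 1.08 and 1.42 to 7.95, 8.5 and 8.82 CPM (log2 change 2.80 ± 0.20, adjusted p = 1.29e-07), a level still under that of untreated HN4 in all 3 libraries. In Cal27 it fell from 27.1, 23.4 and 23.4 to 11.9, 10.5 and 6.49 CPM (log2 change -1.36 ± 0.15, adjusted p = 1.61e-06). The plasmid groups of HN6 and Cal27 moved apart in the same way: HN6 rose from 0.689, 1.41 and 1.14 to 8.57, 8.99 and 7.18 CPM (log2 change 2.92 ± 0.20, adjusted p = 1.53e-14), and Cal27 fell from 26.1, 23.9 and 28.8 to 3.1, 2.62 and 3.37 CPM (log2 change -3.13 ± 0.15, adjusted p = 4.52e-19). After the plasmid the order of these 2 lines was thus turned, with HN6 above Cal27 in all 3 libraries. In HN4 it read 2.87, 3.94 and 4.63 CPM with the vector label and 35.7, 31.9 and 35.2 CPM with the ACLY label (log2 change 3.16 ± 0.14, adjusted p = 2.12e-18).

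DDIT4 (chromosome 10, 72273920 to 72276036) fell in HN4 with IL-8, from 171, 167 and 182 to 88.4, 79.9 and 84.6 CPM (-1.04 ± 0.13), and rose in HN6, from 56.7, 44.4 and 54.3 to 175, 163 and 158 CPM (1.69 ± 0.13). With the plasmid it also rose in HN6, from 45.7, 60.4 and 57.3 to 227, 241 and 232 CPM (2.10 ± 0.13). Neither Cal27 contrast passed: it read 658, 537 and 521 against 589, 554 and 390 CPM without and with IL-8, and 587, 512 and 614 against 648, 630 and 591 CPM with vector and plasmid (0.11 ± 0.11). The HN4 libraries read 53.7, 56.5 and 56.6 CPM with the vector label and 282, 272 and 372 with the ACLY label. The treated and control libraries thus did not overlap in HN4 and HN6, and did overlap in Cal27 in both experiments.

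**Figure D3:**
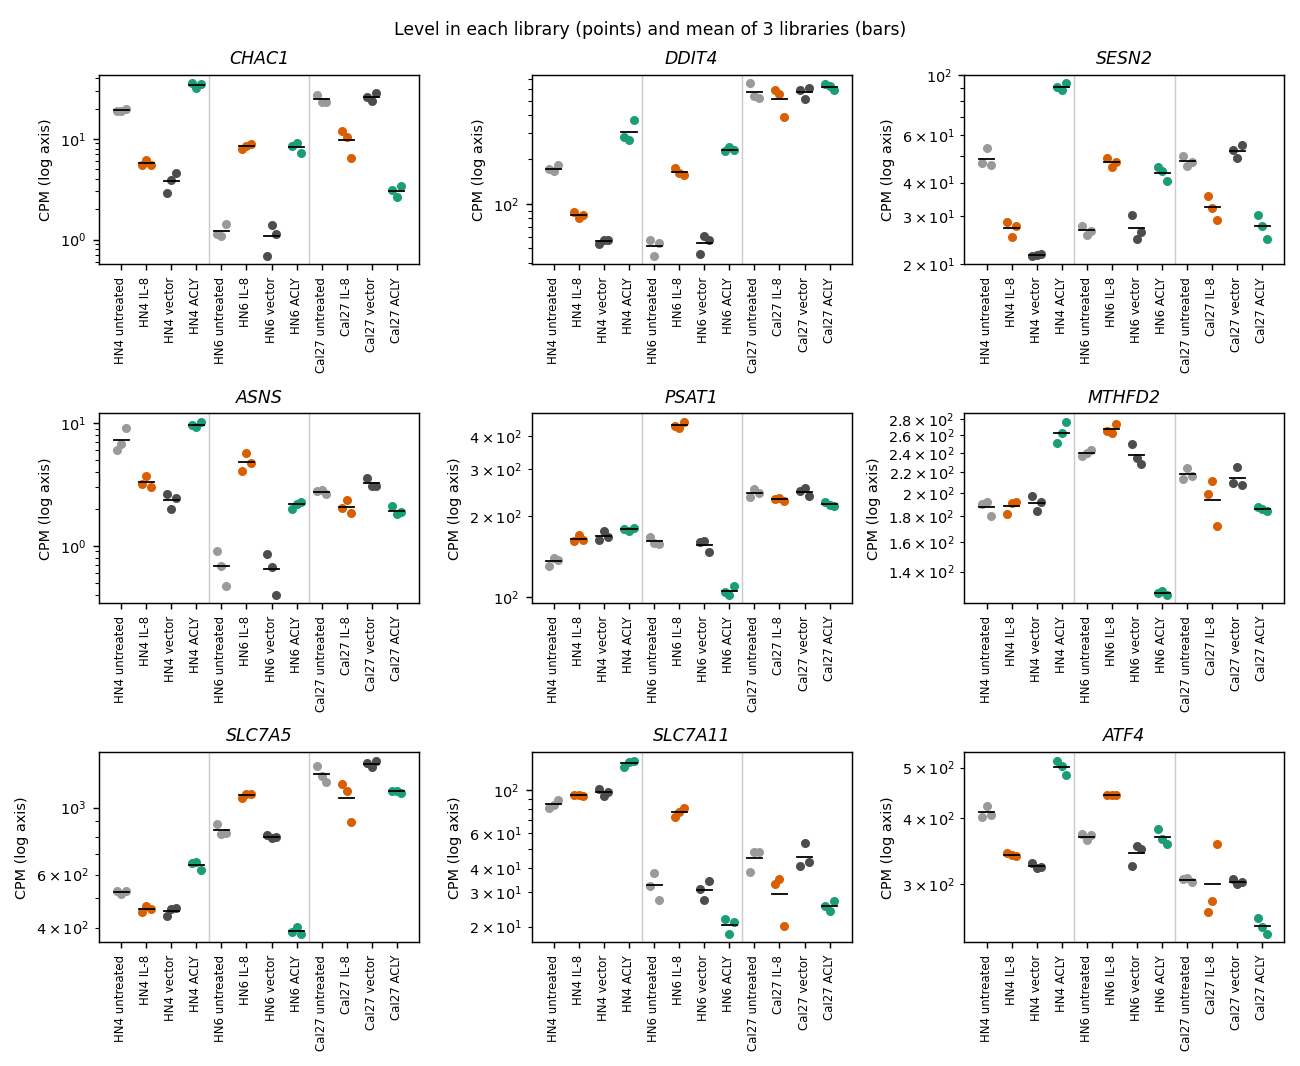
Level of CHAC1, DDIT4, SESN2, ASNS, PSAT1, MTHFD2, SLC7A5, SLC7A11 and ATF4 in each of the 36 libraries, HN4 plasmid groups as labelled, in CPM on a log axis, with 1 point per library and a bar at the mean of each group of 3. Within HN6 both treated groups lie above their controls for CHAC1, DDIT4 and ASNS, while in Cal27 both treated groups lie below for CHAC1.

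SESN2, a leucine sensor that restrains mTORC1, went from 47.3, 53.5 and 46.3 to 28.5, 25.2 and 27.7 CPM in HN4, from 27.7, 25.6 and 26.5 to 49.5, 45.7 and 47.6 in HN6 and from 50, 46.1 and 47.7 to 35.7, 32.2 and 29.1 in Cal27 with IL-8. The log2 changes were -0.85 ± 0.09, 0.85 ± 0.09 and -0.58 ± 0.09, a rise in HN6 and falls in the other lines. With the plasmid SESN2 went from 30.4, 24.7 and 26.2 to 45.8, 44.1 and 40.5 CPM in HN6 and from 52.7, 49.3 and 55.3 to 30.4, 27.6 and 24.8 CPM in Cal27, again up in HN6 and down in Cal27. The HN4 libraries read 21.4, 21.5 and 21.7 CPM labelled vector and 90.1, 88 and 93.4 labelled ACLY. TRIB3, a pseudokinase that feeds back on ATF4 and CHOP, rose in HN6 with IL-8, from 76.4, 70.2 and 69.4 to 133, 131 and 132 CPM (0.89 ± 0.07), and with the plasmid, from 71.8, 70.2 and 70.3 to 118, 111 and 112 CPM (0.69 ± 0.06). In HN4 it read 131, 135 and 136 CPM untreated and 117, 110 and 121 CPM with IL-8, and in Cal27 110, 103 and 101 against 98.5, 93.6 and 102 CPM. The HN4 fall (log2 change -0.21 ± 0.07, adjusted p = 0.0445) lost its call when any of 14 libraries was left out (adjusted p 0.0511 to 0.196). With the plasmid Cal27 fell from 115, 114 and 113 to 97.5, 99.3 and 96.3 CPM, and the HN4 libraries read 106, 111 and 108 CPM labelled vector and 237, 230 and 283 labelled ACLY.

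STC2, a secreted glycoprotein of calcium and stress responses, rose in HN6 with IL-8, from 57.6, 50.4 and 65.8 to 110, 102 and 106 CPM (0.88 ± 0.09), and with the plasmid, from 54.2, 59.2 and 55.5 to 85.3, 85.4 and 86.4 CPM (0.61 ± 0.05). In Cal27 it was the stress effector that rose with the plasmid, from 202, 184 and 209 to 242, 241 and 237 CPM (0.26 ± 0.05), a call that upper-quartile scaling ended (0.11, adjusted p = 0.0536). With IL-8 the HN4 libraries went from 510, 496 and 512 to 431, 422 and 421 CPM, and the call (log2 change -0.25 ± 0.08, adjusted p = 0.0496) was lost when any of 13 libraries was left out (adjusted p 0.0538 to 0.145). The Cal27 libraries read 189, 173 and 180 CPM untreated and 201, 203 and 222 with IL-8, and the HN4 libraries 398, 396 and 397 against 645, 586 and 599 with the vector and ACLY labels. PPP1R15A, the regulatory subunit that returns eIF2 to its unphosphorylated state, was the stress effector with a fall in HN6 with IL-8 (-0.25 ± 0.07), and it also fell in HN4 (-0.53 ± 0.07).

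Of the 12 enzymes, 8 rose in HN6 with IL-8, with a median log2 change of 1.46, and the others there were PSPH, MTHFD2, ALDH18A1 and CBS. In HN4 2 rose and 3 fell, and in Cal27 2 rose and 5 fell. With the plasmid 4 rose and 5 fell in HN6 and 2 rose and 8 fell in Cal27, with medians of 0.15 and -0.30. Over all genes, 26.8% rose and 24.9% fell in HN6 and 34.2% and 29% in Cal27 with the plasmid. With IL-8, 7.61% of all genes rose and 7.81% fell in HN6, 6.89% and 7.09% in HN4, and 22.7% and 16.7% in Cal27. ASNS (chromosome 7, 97852118 to 97872542) rose in HN6 with IL-8 from 0.906, 0.685 and 0.473 to 4.06, 5.7 and 4.76 CPM (log2 change 2.81 ± 0.24, adjusted p = 5.34e-07) and with the plasmid from 0.861, 0.676 and 0.399 to 2.01, 2.21 and 2.29 CPM (log2 change 1.74 ± 0.26, adjusted p = 9.26e-07). In HN4 it fell with IL-8 from 6.02, 6.71 and 9.14 to 3.19, 3.69 and 3.02 CPM (log2 change -1.13 ± 0.18, adjusted p = 0.000544), below every untreated library. In Cal27 it read 2.82, 2.84 and 2.63 against 2.02, 2.34 and 1.84 CPM with IL-8, not past the test, and fell with the plasmid from 3.58, 3.07 and 3.07 to 2.09, 1.81 and 1.88 CPM (log2 change -0.76 ± 0.20, adjusted p = 0.00138). The HN4 libraries read 2.63, 2 and 2.44 CPM labelled vector and 9.67, 9.3 and 10.2 labelled ACLY. No library of any group had more than 10.2 CPM of ASNS.

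Within serine synthesis, PHGDH and PSAT1 rose in HN6 with IL-8, while with the plasmid PHGDH did not pass the test and PSAT1 fell. PHGDH, which opens serine synthesis, went from 127, 112 and 122 to 284, 286 and 298 CPM with IL-8 (log2 change 1.27 ± 0.18, adjusted p = 0.000117) and read 119, 116 and 120 against 125, 128 and 116 CPM with vector and plasmid (log2 change 0.06 ± 0.06, adjusted p = 0.477). PSAT1, the next enzyme, rose from 168, 159 and 158 to 435, 429 and 451 CPM with IL-8 (log2 change 1.45 ± 0.06, adjusted p = 3.59e-11) and fell from 160, 162 and 147 to 104, 102 and 110 CPM with the plasmid (log2 change -0.57 ± 0.05, adjusted p = 1.33e-11). PSPH, which finishes the pathway, did not pass with IL-8 (-0.18 ± 0.07) and fell with the plasmid (-0.35 ± 0.06). In the other lines PHGDH read 56.5, 56.4 and 56.4 against 51, 49.8 and 53.9 CPM in HN4, and 141, 133 and 130 against 114, 117 and 225 CPM in Cal27, without and with IL-8. The Cal27 value turned on the third treated library: the change was 0.17 ± 0.18 on the log2 scale (adjusted p = 0.458) with it and -0.24 (adjusted p = 0.000676) without it. PSAT1 read 131, 140 and 137 against 162, 170 and 164 CPM in HN4 (0.29 ± 0.06) and 236, 254 and 245 against 233, 234 and 229 CPM in Cal27. With the plasmid Cal27 read 142, 135 and 145 against 108, 107 and 97.9 CPM for PHGDH and 250, 255 and 238 against 227, 221 and 218 CPM for PSAT1, both falls. In the HN4 plasmid groups, labelled vector and ACLY, PHGDH read 49.7, 57.5 and 47.4 against 64.1, 63.7 and 74.1 CPM, and PSAT1 read 164, 176 and 167 against 179, 177 and 181 CPM.

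The mitochondrial folate enzymes split. SHMT2, which turns serine into glycine, rose in HN6 with IL-8 from 195, 171 and 186 to 295, 272 and 281 CPM (0.63 ± 0.07) and fell with the plasmid from 179, 186 and 174 to 156, 159 and 147 CPM (-0.22 ± 0.05). MTHFD2, the next step, read 237, 240 and 243 against 265, 263 and 274 CPM with IL-8 (log2 change 0.17 ± 0.07, adjusted p = 0.1), and fell with the plasmid from 250, 234 and 228 to 127, 128 and 126 CPM (-0.90 ± 0.05). Without the third Cal27 library with IL-8, the MTHFD2 change of 0.17 in HN6 passed (adjusted p = 0.00181). ALDH1L2, which oxidises the formyl group and makes NADPH, rose under both treatments in HN6: from 1.3, 1.48 and 1.36 to 8.22, 8.39 and 9.46 CPM and from 1.55, 1.52 and 1.94 to 5.7, 5.79 and 5.86 CPM (2.66 ± 0.25 and 1.79 ± 0.17). In Cal27 it fell under both, from 38.6, 43.2 and 39.3 to 19.1, 22.2 and 13.6 CPM and from 41.5, 46.6 and 39.1 to 6.58, 6.09 and 7.19 CPM (-1.16 ± 0.18 and -2.69 ± 0.12). In HN4 it stayed at or under 0.858 CPM in every library. Its other-strand neighbour C12orf45, at 185% of its mean CPM, changed by -0.14 (not past the test) and -0.46 in HN6 with IL-8 and the plasmid; its part was not tested. SHMT2 in HN4 read 198, 195 and 207 against 204, 203 and 206 CPM without and with IL-8, and in Cal27 250, 231 and 230 against 228, 236 and 259 CPM. MTHFD2 read 190, 192 and 180 against 182, 191 and 192 CPM in HN4, and 213, 224 and 216 against 199, 211 and 172 CPM in Cal27, where its call (log2 change -0.18 ± 0.07, adjusted p = 0.0412) was lost when any of 17 libraries was left out (adjusted p 0.0542 to 0.131).

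PCK2, the mitochondrial enzyme that makes phosphoenolpyruvate, followed the stress effectors. With IL-8 it went from 38.6, 36.9 and 35 to 28.4, 28.4 and 24.8 CPM in HN4, from 25.8, 27.2 and 26.7 to 75.6, 70.9 and 74.1 in HN6 and from 44.3, 40.4 and 39.5 to 29.9, 31.5 and 30 in Cal27. It fell in HN4 and Cal27 and rose in HN6 (-0.44 ± 0.08, -0.46 ± 0.08 and 1.48 ± 0.08). With the plasmid it rose in HN6, from 26.5, 27.9 and 25.6 to 35, 38.3 and 37.5 CPM, and fell in Cal27, from 46.9, 40.2 and 43.5 to 25.9, 25.1 and 25.7 CPM. The HN4 libraries read 21.2, 22.3 and 25.6 CPM labelled vector and 48.6, 48.4 and 59.9 labelled ACLY. CTH, which frees cysteine from cystathionine, rose in HN6 under both treatments, from 6.46, 7.54 and 5.5 to 25.3, 25.1 and 24.8 CPM and from 5.34, 6.99 and 6.28 to 12.5, 12.9 and 12.4 CPM. PYCR1 rose in HN6 with IL-8 (1.82 ± 0.14) and in Cal27 with IL-8 and the plasmid (0.34 ± 0.10 and 0.72 ± 0.11). ALDH18A1, the enzyme before it in proline synthesis, rose in HN4 and Cal27 with IL-8 (0.33 ± 0.07 and 0.19 ± 0.07) and fell in HN6 with the plasmid (-0.25 ± 0.05). CBS, which makes cystathionine, has a near-identical copy, CBSL, that can take its reads. Summed over both, the HN6 libraries with IL-8 held 268 reads against 42 untreated, a change of 2.61 ± 0.36 (adjusted p = 0.000107), while the plasmid left 67 reads against 50 (adjusted p = 0.719).

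The amino acid transporters went different ways under the 2 treatments in HN6. With IL-8 5 of 8 rose (median 0.31), and with the plasmid 6 of 8 fell and 2 rose (median -0.59). All 8 were higher in the HN4 libraries labelled ACLY (median 0.47), and in Cal27 4 fell and 1 rose with IL-8 and 5 fell and 1 rose with the plasmid. Of all genes, 7.61% rose with IL-8 and 24.9% fell and 26.8% rose with the plasmid in HN6. In HN4 18.9% were higher with the ACLY label. In Cal27 16.7% fell and 22.7% rose with IL-8, and 29% fell and 34.2% rose with the plasmid. SLC7A11, the cystine importer, went from 32.1, 37.8 and 27.5 to 72.4, 77.3 and 80.9 CPM with IL-8 (log2 change 1.25 ± 0.15, adjusted p = 2.45e-05) and from 31.2, 27.3 and 34.1 to 21.9, 18.4 and 21.1 CPM with the plasmid (log2 change -0.59 ± 0.09, adjusted p = 2.62e-06). In Cal27 it fell with IL-8, from 38, 48.1 and 48 to 33.2, 34.9 and 20.2 CPM (-0.61 ± 0.15), and with the plasmid, from 40.9, 53.3 and 42.6 to 25.6, 24.1 and 26.9 CPM (-0.85 ± 0.09). In HN4 it read 80.7, 83.8 and 88.8 against 94.3, 94.2 and 93.1 CPM without and with IL-8, which did not pass, and 101, 93.4 and 98.2 against 131, 140 and 141 CPM with the vector and ACLY labels.

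SLC7A5 (chromosome 16, 87830023 to 87869488) rose with IL-8 in HN6, from 882, 815 and 827 to 1080, 1110 and 1110 CPM (0.40 ± 0.08), and fell with the plasmid, from 809, 795 and 798 to 387, 401 and 382 CPM (-1.04 ± 0.04). In HN4 it read 528, 516 and 527 against 452, 473 and 461 CPM with IL-8, and 438, 460 and 463 against 653, 659 and 620 CPM in the plasmid groups as labelled. In Cal27 it fell from 1380, 1270 and 1220 to 1200, 1140 and 898 CPM with IL-8, a call lost without the first untreated Cal27 library (-0.21, adjusted p = 0.0767), and from 1410, 1360 and 1430 to 1140, 1140 and 1120 CPM with the plasmid. SLC3A2, the heavy chain that carries SLC7A5 and SLC7A11 to the membrane, fell with the plasmid in HN6 (-0.69 ± 0.07) and did not pass with IL-8 there (0.19 ± 0.09). SLC7A1, the arginine and lysine importer, did not pass with IL-8 in any line: it read 458, 449 and 450 against 452, 488 and 473 CPM in HN4, 199, 209 and 198 against 179, 188 and 185 in HN6, and 298, 301 and 293 against 312, 312 and 228 in Cal27. Without the third Cal27 library with IL-8 the HN6 change of -0.12 passed (adjusted p = 0.0162). With the plasmid it fell in HN6 from 199, 194 and 201 to 132, 132 and 129 CPM (-0.59 ± 0.05) and read 313, 303 and 318 against 348, 336 and 330 CPM in Cal27, while the HN4 libraries had 457, 465 and 481 against 561, 571 and 487 CPM as labelled. The 2 transporters that rose with the plasmid in HN6 were SLC38A2, for glutamine and other small neutral amino acids (0.64 ± 0.05), and SLC6A9, for glycine (0.79 ± 0.10). SLC6A9 overlaps CCDC24 on the other strand, at 72.7% of its mean CPM, which itself changed by 1.01 there; its part was not tested. SLC1A4 and SLC1A5, exchangers of small neutral amino acids, rose with IL-8 in HN6 (0.30 ± 0.08 and 0.32 ± 0.10) and fell with the plasmid (-0.33 ± 0.08 and -0.61 ± 0.05).

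Of the 5 genes of tRNA charging and export, 4 rose with IL-8 in HN6 (median 0.62). These were the synthetases AARS (0.77 ± 0.16), GARS (0.72 ± 0.10), SARS (0.62 ± 0.11) and WARS (0.59 ± 0.07). With the plasmid AARS, GARS and XPOT fell in HN6 (median -0.13). Of all genes, 7.61% rose with IL-8 and 24.9% fell with the plasmid in HN6. WARS, the tryptophan synthetase, which interferon also raises, went from 135, 142 and 133 to 196, 207 and 209 CPM in HN6 and from 56.8, 59.1 and 57 to 79.1, 84.3 and 89.9 CPM in Cal27 with IL-8, a rise in both lines. In HN4 it read 126, 126 and 118 against 117, 116 and 113 CPM. With the plasmid it read 134, 133 and 126 against 132, 127 and 125 CPM in HN6, which overlapped, and rose in Cal27 from 54.3, 61.1 and 56 to 105, 103 and 98.2 CPM (0.83 ± 0.09). The HN4 libraries had 111, 119 and 117 CPM labelled vector and 143, 151 and 106 labelled ACLY, where the third library labelled ACLY was the low one and the difference passed without it (0.34, adjusted p = 7.96e-07). XPOT, which exports tRNA from the nucleus, did not pass with IL-8: it read 182, 180 and 176 against 212, 223 and 223 CPM in HN4, 211, 233 and 211 against 255, 252 and 261 in HN6, and 209, 241 and 235 against 231, 242 and 159 in Cal27. Without the third Cal27 library with IL-8 its changes of 0.29 in HN4 and 0.24 in HN6 passed (adjusted p = 8.36e-06 and 9.06e-05). With the plasmid it fell in HN6 from 215, 208 and 203 to 144, 139 and 144 CPM (-0.55 ± 0.05), and it read 212, 235 and 212 against 219, 228 and 230 CPM in Cal27 and 223, 215 and 227 against 193, 197 and 187 CPM in HN4 as labelled.

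Set side by side in HN6, where untreated and vector libraries are separate controls, 20 members were called under both treatments: 10 rose in both and 1, ATF5, fell in both. Another 8 rose with IL-8 and fell with the plasmid: PSAT1, SHMT2, SLC7A11, SLC7A5, SLC1A4, SLC1A5, AARS and GARS. PPP1R15A did the reverse. The part of NUP62, which overlaps ATF5 on the other strand, in the ATF5 falls was not tested. Over all 2203 genes called under both, 967 rose in both, 1053 fell in both, 70 rose with IL-8 and fell with the plasmid, and 113 did the reverse, so that 91.7% had the same direction. The 10 raised by both were DDIT4, CHAC1, TRIB3, SESN2, STC2, ASNS, ALDH1L2, PCK2, CTH and SLC6A9. So the stress effectors other than PPP1R15A rose under both treatments. Of the 8 genes that rose with IL-8 and fell with the plasmid, 6 are transporters or synthetases. The 38 members hold 8 transporters and 5 genes of tRNA charging or export. The difference between the treatments was not itself tested for each gene.

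**Figure D4:**
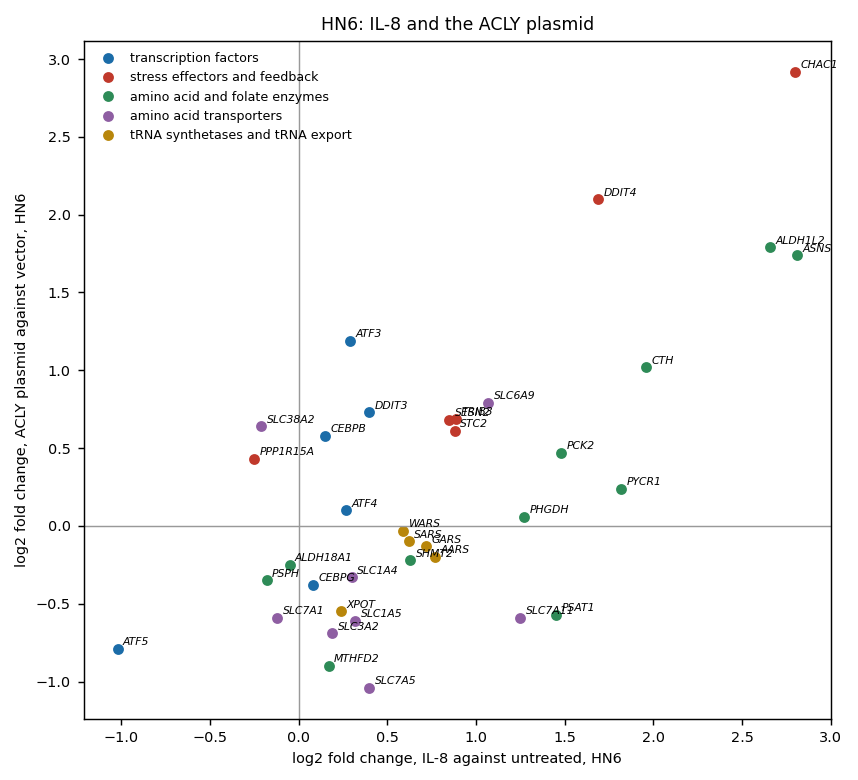
Log2 change in HN6 with IL-8 against untreated (horizontal) and with the ACLY plasmid against vector (vertical), 1 point per member, coloured by role, leaving out NUPR1 and CBS for their low counts. CHAC1, ASNS and ALDH1L2 lie at the upper right and SLC7A5 and SLC7A11 below the horizontal line at 0.

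In Cal27, 20 members were called with IL-8 and 30 with the plasmid, and 19 were called in both: 5 rose in both and 14 fell in both. Over all genes tested in both comparisons, 6721 were called in both, and 100% of these had the same direction. The remaining member called with IL-8 was CBS, which fell with IL-8 and did not pass with the plasmid. Without the third IL-8 library the IL-8 changes were -1.16 for CHAC1, -0.84 for DDIT3, -0.52 for SESN2, -0.99 for ALDH1L2, -0.45 for PCK2, -0.41 for SLC7A11, -0.16 for SLC7A5 and 0.48 for WARS, all still called. Fitted on the 6 Cal27 libraries alone, 8 of the 20 calls with IL-8 were kept: falls of CHAC1, SESN2, CEBPG, ALDH1L2, PCK2 and SLC1A4 and rises of ATF5 and WARS. The other 12 were lost (adjusted p 0.0836 to 0.311): ATF3, DDIT3, NUPR1, PSPH, MTHFD2, PYCR1, ALDH18A1, CBS, SLC7A11, SLC7A5, SLC3A2 and SLC38A2. The treated Cal27 libraries are those that hold reads of genes read in HN4 alone. Of the 20 members called with IL-8, the treated Cal27 mean lay between untreated Cal27 and HN4 with IL-8 for 15, past the HN4 level for 3 and away from it for 2. Against untreated HN4 the counts were 10, 5 and 5. Of the 30 called with the plasmid, 18 lay between the Cal27 vector level and that of the HN4 libraries labelled vector, 8 past it and 4 away from it, and against untreated HN4 the counts were 12, 10 and 8. The summed squamous markers read 6370 to 7060 CPM over the Cal27 control libraries, 4800 to 6200 CPM with IL-8 and 3720 to 3910 CPM with the plasmid. For CHAC1 the levels were 26.25 ± 2.44 CPM in Cal27 with the vector, 3.03 ± 0.381 with the plasmid, 3.811 ± 0.886 in HN4 labelled vector and 19.13 ± 0.473 in untreated HN4 (mean ± SD, n = 3). These placements were chosen after the values were seen, and the part of HN4 reads in the Cal27 changes was not tested. No share over all called genes was taken for them, so the counts cannot be read as particular to the members.

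**Figure D5:**
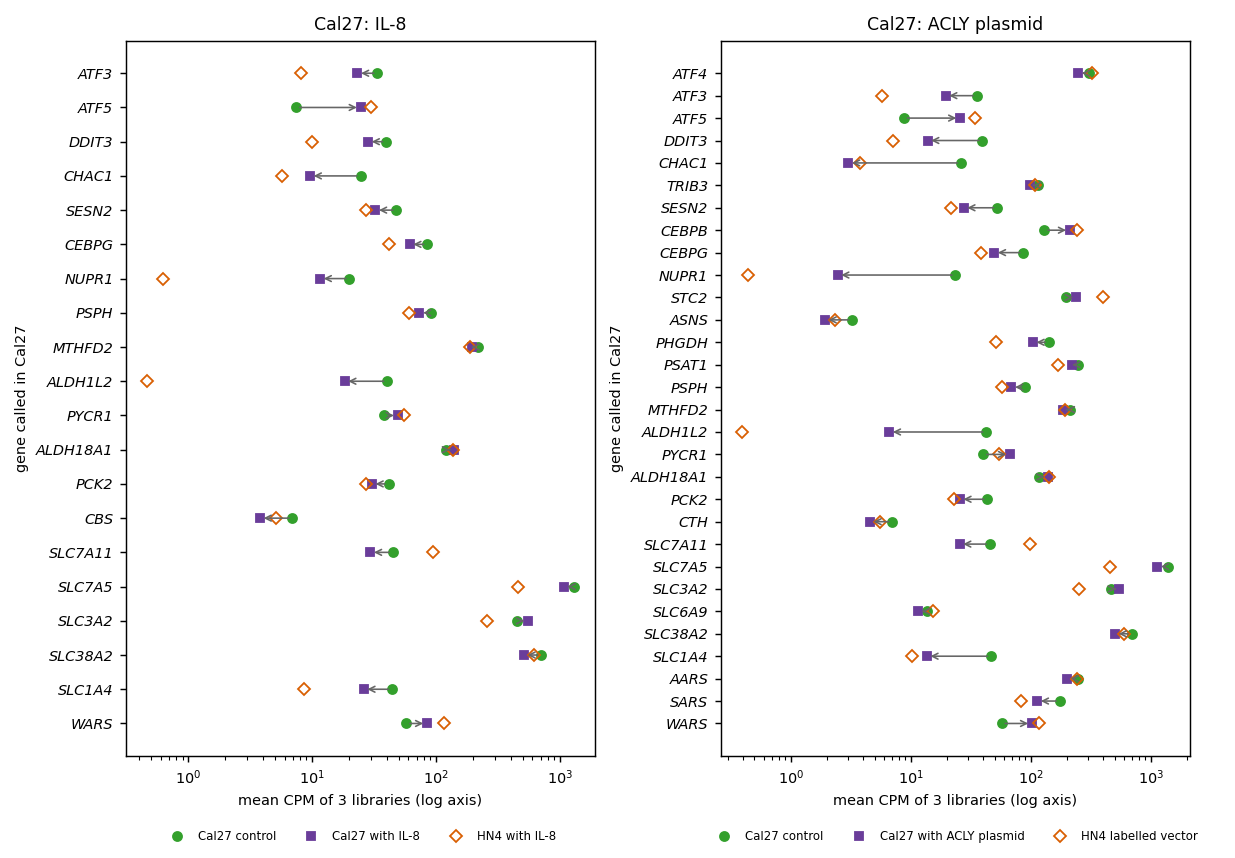
Level of the members called in Cal27, in CPM on a log axis, in Cal27 controls, treated Cal27 and the HN4 group used beside them, for IL-8 and for the plasmid. Of those called, 15 of 20 treated levels with IL-8 and 18 of 30 with the plasmid lie between the Cal27 control and HN4 levels. No share over all called genes was taken beside these counts.

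Across the experiments, HN4 groups with like ACLY levels were compared in 1 fit of all 36 libraries, a comparison chosen after the values were seen. The IL-8 group and the group labelled vector, both high in ACLY, differed in 1 of 38 members, DDIT4 (0.60, adjusted p = 0.0488), with 7 higher and 1 lower at an unadjusted p under 0.05. Of all genes 0.0827% were higher and 0.00517% lower in that comparison. HN4 labelled ACLY against untreated HN4, both low in ACLY, had 20 members higher and none lower by edgeR, with 27 higher and none lower at an unadjusted p under 0.05, while 0.517% of all genes were higher and 0.377% lower. The median log2 difference of the members was 0.39 there. Without the third library labelled ACLY it was 0.36, with 19 members higher and 0 lower (all genes, 0.311% and 0.161%). The 2 experiments were separate sets of libraries, and experiment cannot be told apart from treatment in these comparisons. Within HN4, 13 members fell with IL-8 and were higher in the libraries labelled ACLY, and 2, ATF5 and ALDH18A1, rose and were lower. Over all genes 2141 were called in both of those comparisons, and 0% of them had the same direction. Of all genes tested in both, 5.52% fell with IL-8 and were higher with the ACLY label, and 6.34% did the reverse.

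Other genes of the pathway were described by lists. Beside their counts, over all genes in HN6 7.61% rose and 7.81% fell with IL-8, and 26.8% rose and 24.9% fell with the plasmid. For HN4 with IL-8 these shares were 6.89% and 7.09%, for Cal27 with IL-8 22.7% and 16.7%, and for Cal27 with the plasmid 34.2% and 29%. Of 20 further ATF4 or CHOP targets, 12 rose and 1 fell with IL-8 in HN6, where 16 rose and 4 fell with the plasmid. In HN4 10 fell with IL-8 and none rose by edgeR, with 2 higher and 10 lower at an unadjusted p under 0.05. In Cal27 5 rose and 12 fell with IL-8 and 6 rose and 13 fell with the plasmid. NDRG1, a stress and hypoxia gene, changed in the direction of CHAC1 in all 4 comparisons given here: 445 to 162 CPM in HN4 and 21.6 to 102 CPM in HN6 with IL-8, and 23.9 to 414 CPM in HN6 and 783 to 166 CPM in Cal27 with the plasmid. VLDLR, a lipoprotein receptor that ATF4 raises, rose in HN6 from 1.8 to 8.58 CPM with IL-8 and from 2.09 to 13.2 CPM with the plasmid. Of 18 XBP1 and ATF6 targets, which report the other arms of the response to misfolded protein, 11 rose in HN6 and 5 in HN4 with IL-8, where 2 fell, and 12 rose and 1 fell in HN6 with the plasmid. In Cal27 8 of them rose and 3 fell with IL-8, and 11 rose and 4 fell with the plasmid. In HN4 3 were higher and 9 lower with the ACLY label than with the vector label (all genes, 18.9% and 19.1%). Of the 20 ATF4 or CHOP targets, 15 were higher and 4 lower there. HSPA5, the main chaperone of the endoplasmic reticulum, rose with IL-8 in both HN4 (416 to 620 CPM) and HN6 (611 to 1010 CPM), where 5 of the 6 stress effectors had opposite directions and PPP1R15A fell in both.

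Lists of supply genes outside the 38 gave mixed counts. With IL-8 in HN6, 6 of 16 other cytosolic tRNA synthetases rose and 1 fell, with CARS (90.5 to 151 CPM), MARS (177 to 272 CPM) and YARS (168 to 258 CPM) the largest, and with the plasmid 3 rose and 13 fell. Of 17 mitochondrial synthetases 11 fell with the plasmid in HN6 and none rose (none at an unadjusted p under 0.05), and MARS2 had the largest fall, from 22.2 to 10 CPM. Among 17 other transporters 3 rose and 3 fell with IL-8 in HN6. Of 13 other serine and folate genes 2 rose and 1 fell with IL-8 and 1 rose and 10 fell with the plasmid in HN6. Of the other amino acid enzymes, GPT2, an alanine transaminase, rose with IL-8 in HN6 from 46.9 to 116 CPM, and ASS1, which makes arginine with ASL, rose from 78.4 to 155 CPM with IL-8 and from 83.3 to 196 CPM with the plasmid. Of 15 genes for the eIF2 kinases, subunits and exchange factor, 2 fell with IL-8 and 2 rose and 8 fell with the plasmid in HN6. In Cal27 with the plasmid 8 of that list rose and 1 fell.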

How the data were processed

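RNA-seq covered 36 libraries, 3 in each of 12 groups. Per the submitters' processing notes, the authors worked on build hg38 with DESeq2, featureCounts 1.5.0-p3, HISAT2 2.0.5 and CASAVA. Nothing in the sources used here states the strand setting or how multi-mapping reads were handled. Per the labels' protocols, libraries were made from poly-A RNA primed with random hexamers. The deposited values are raw whole-number counts for 58735 genes, with totals of 16570601 to 20232735 per library. From these, each experiment's 18 libraries entered 1 edgeR model (edgeR 4.0.16 with limma 3.58.1 in R 4.3.3). It used TMM scaling, filterByExpr (count at least 10, total at least 15), a robust quasi-likelihood fit with 12 residual degrees of freedom, two-sided tests, and Benjamini-Hochberg adjustment over 18398 genes (IL-8) or 18556 (plasmid) at 0.05. Cross-experiment comparisons tested 19349 genes in 1 fit of 36 libraries. Interactions tested whether a response differed between lines. CPM used TMM factors over 36 libraries, and TPM used the gene lengths in the deposited table. Each pair of replicates differed beyond sampling noise, and all were kept. Replicate numbers were not used to pair the samples in the main model.

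The 38 members, the lists and the rule for named genes (values in every library for 19 members and ACLY, up to 3 called genes of largest change per list) were chosen with earlier results of these data known. Alternatives were DESeq2 1.42.0, 3 other scalings, no filter, a stricter one (mean CPM of 5), the libraries compared alone, all 36 libraries, a replicate block and each library left out. The summed CBS and CBSL counts, the cross-experiment HN4 comparison, the interaction of HN4 and HN6, the placing of Cal27 against HN4, the fit of every member on the 6 Cal27 libraries and the HN4 counts without the third library labelled ACLY were added after the data were seen. Promoters were matched to RefSeq by Ensembl identifier or symbol.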

Additional observations from a re-analysis of the deposited data

Results flagged for a closer look

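The change with IL-8 differed among HN4, HN6 and Cal27 for 32 of 38 members, by edgeR's interaction test on 2 degrees of freedom with adjustment over all genes. Of all genes tested, 40.2% differed. The 32 include NUPR1, which was near the limit of detection in HN6. The 19 members whose values are given library by library were chosen with earlier results of these data known. Their count, 17 of 19, is therefore descriptive only. Among the transcription factors, the adjusted p was 0.00721 for ATF4 and 0.00133 for DDIT3. Among the stress effectors, the adjusted p was 8.7e-10 for CHAC1, 1.67e-08 for DDIT4, 1.99e-08 for SESN2, 1.56e-07 for TRIB3 and 3.92e-06 for STC2. Among the asparagine, serine and phosphoenolpyruvate enzymes, the adjusted p was 6.31e-08 for ASNS, 0.000661 for PHGDH, 5.29e-10 for PSAT1 and 4.77e-10 for PCK2. Among the mitochondrial folate enzymes, the adjusted p was 0.000144 for SHMT2, 0.0214 for MTHFD2 and 2.04e-07 for ALDH1L2. Among the transporters, the adjusted p was 9.59e-06 for SLC7A11 and 0.000421 for SLC7A5. For the tRNA synthetases it was 2.48e-05 for WARS. The MTHFD2 result was lost without the first untreated or the third IL-8 library of HN6, or the second untreated library of Cal27 (adjusted p 0.0506 to 0.0576), and with no filter on low counts (0.23). SLC7A1 and XPOT did not pass (0.402 and 0.0537), but both did without the third Cal27 library with IL-8 (0.01 and 0.00491). The Cal27 libraries with IL-8 held reads of genes read in HN4 alone, whose part in these differences was not tested.

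The change with the ACLY plasmid differed between HN6 and Cal27 for 32 of 38 members, where 61.9% of all genes tested differed. It did for 18 of the same 19 chosen members, a count that is again descriptive only. NUPR1, near the limit of detection in HN6, is among the 32. The adjusted p for the transcription factors was 2.47e-06 for ATF4 and 8.41e-15 for DDIT3. The adjusted p for the stress effectors was 5.62e-21 for CHAC1, 1.13e-07 for DDIT4, 8.84e-15 for SESN2, 1.28e-11 for TRIB3 and 0.000125 for STC2. The adjusted p for the asparagine, serine and phosphoenolpyruvate enzymes was 5.32e-08 for ASNS, 1.35e-05 for PHGDH, 9.62e-06 for PSAT1 and 4.76e-11 for PCK2. The adjusted p for the mitochondrial folate enzymes was 0.0111 for SHMT2, 1.68e-10 for MTHFD2 and 7.08e-20 for ALDH1L2. The adjusted p for the transporters was 2.02e-12 for SLC7A5 and 2.06e-10 for SLC7A1. The adjusted p for the tRNA genes was 1.29e-06 for WARS and 5.91e-09 for XPOT. CHAC1, DDIT3, SESN2, TRIB3, ASNS, ALDH1L2 and PCK2 rose in HN6 and fell in Cal27. The SHMT2 result depended on the scaling: its adjusted p was 0.0838 with relative log expression factors, 0.404 by library size, 0.981 with upper-quartile factors, 0.672 under the 5 CPM filter and 0.08 with DESeq2. SLC7A11 did not pass (0.0807) and did under all 3 other scalings (0.00149 to 0.0266). The treated Cal27 libraries held reads of genes read in HN4 alone, whose part in these differences was not tested.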

How the results depend on the processing

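Counts of members called kept within 1.5 times of the main count under every alternative except those of the IL-8 experiment named here. With only the 6 libraries compared in the fit, 26 members were called in HN4 (main 16) and 8 in Cal27 (main 20). Leaving out 1 library at a time gave 13 (without the second untreated library) to 25 (without the third IL-8 library) in Cal27, 11 to 20 in HN4 and 21 to 34 in HN6. For PHGDH in Cal27 with IL-8 leaving out 1 library gave changes from -0.24 (without the third IL-8 library) to 0.35, and for XPOT in Cal27 with the plasmid it was -0.12 with upper-quartile factors and -0.10 under the 5 CPM filter, so both genes could take the sign opposite to their main value. Over all genes, the calls with IL-8 moved from 2572 to 6551 in HN4, from 2837 to 6025 in HN6 and from 7247 to 2588 in Cal27 with only the libraries compared, and to 5738 in HN4 and 6194 in HN6 without the third Cal27 IL-8 library; other single libraries gave as few as 1401 and 1742. The interaction of HN4 and HN6 moved from 4001 genes to 7574 with only their 12 libraries and to 7344 without that Cal27 library. The 5 CPM filter, which tests fewer genes, gave 7758 for Cal27 against HN4 (main 11700) and 8196 for Cal27 against HN6 (main 12583). The cause of the other moves was not tested.

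Scaling moved the share of higher calls over all genes with IL-8: 1268 higher and 1304 lower in HN4 became 792 and 1586 by library size and 812 and 1699 by upper quartiles, and 1400 and 1437 in HN6 became 1695 and 939, and 1760 and 1000. By upper quartiles Cal27 went from 4175 and 3072 to 3474 and 3949, HN4 labelled ACLY from 3512 and 3550 to 4399 and 2742, and Cal27 with the plasmid from 6353 and 5381 to 4995 and 6861. The median of all genes moved from 0.03 to 0.15 for untreated Cal27 against HN6, and from 0.01 to 0.13 for the vector libraries, by library size and by upper quartiles; members in the latter were 29 higher and 4 lower by library size. With the replicate block 16, 25 and 18 members were called with IL-8 in HN4, HN6 and Cal27, and 34, 32 and 29 in the plasmid comparisons. Same-numbered samples deviated together with correlations of -0.46 to 0.58, and in 0 of 10 comparisons did every pair exceed 0.1. With 3 libraries per group this rule cannot exclude a culture or batch shared by same-numbered samples. Genes at or near 0.148 to 0.181 CPM, such as NUPR1 in HN6 and ALDH1L2 in HN4, are limited by depth.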
